A study of Drosophila melanogaster with 3 samples.

Results

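Described here are 7 homeobox genes of the Antennapedia complex, called its members below, although the complex holds further genes such as fushi tarazu. The members are labial (lab), proboscipedia (pb), zerknullt (zen), bicoid (bcd), Deformed (Dfd), Sex combs reduced (Scr) and Antennapedia (Antp). These 7 genes, of 13945 protein-coding genes on the 6 chromosome arms of Drosophila melanogaster, were set against the binding of Insensitive, the product of insv. A region was assigned to a gene when it overlapped the annotated gene span or lay within 10 kb of it. The genes were not picked by a measured value, but they were chosen with earlier results of these data known. Of the 732 thresholded peaks of the study 1 was near a member, and of the 30000 regions of the pooled list 102 were.

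Chromatin immunoprecipitation with sequencing was done on whole embryos of both sexes, 0 to 24 hours old, from a transgenic insv-GFP line that makes Insensitive with GFP (eGFP in the sample descriptions) at its C terminus, and the antibody was against GFP. The study has 1 group of 3 biological replicates and no second genotype, treatment or age. Whole embryos mix cells that use a given Hox gene with cells that keep it silent, and the age range spans all of embryogenesis, so binding in some cells or stages cannot be told from weak binding in all. Neither the promoter of the transgene nor the number of insv copies in the line is given in the labels.

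Hox genes encode homeodomain transcription factors that give body segments their identity along the head to tail axis. In the fly they lie in a pair of clusters, and the Antennapedia complex holds those for the head and the anterior thorax, together with zen, bcd and the pair-rule gene fushi tarazu (ftz), which are related in sequence but act earlier and are not used as segment identity genes. Long regulatory regions, Polycomb and trithorax group proteins and insulators are known to keep each gene on or off in its own segments. Insensitive is a BEN-domain protein, known as a co-repressor in Notch signalling and as a binder of the palindrome CCAATTGG, and it has been described at insulators of the other Hox cluster.

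All 7 genes lie on chromosome arm 3R (dm6, which is release 6 of the genome), within a stretch of 337.8 kb from lab to Antp that also holds other genes. In order along the plus strand, lab (FBgn0002522) occupies chr3R:6661427-6678590, pb (FBgn0051481) chr3R:6707800-6742063, zen (FBgn0004053) chr3R:6752864-6754194, bcd (FBgn0000166) chr3R:6755842-6759466, Dfd (FBgn0000439) chr3R:6791836-6802428, Scr (FBgn0003339) chr3R:6823120-6849981 and Antp (FBgn0260642) chr3R:6896253-6999228. Dfd is on the plus strand and the other 6 are on the minus strand. Their spans differ widely, from 1.3 kb for zen to 103 kb for Antp. The windows of zen and bcd share most of their length, since these genes are 1647 bp apart, and all 4 pooled regions near zen were also near bcd.

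The complex holds 2 strong peaks, one on the Scr side and one on the Antp side of ftz, and their sequences are shown because the results turn on them. Both are given 5′ to 3′ on the plus strand, from the RefSeq release 6 genome. The first line is the 251 bases centred on the summit of the peak beside Scr, chr3R:6854395-6854645, in which capitals mark the one match to the Insensitive palindrome with at most 1 mismatch. The second is the whole peak on the far side of ftz, chr3R:6870842-6871026, which holds no match with 1 mismatch or none.
Peak between Scr and ftz: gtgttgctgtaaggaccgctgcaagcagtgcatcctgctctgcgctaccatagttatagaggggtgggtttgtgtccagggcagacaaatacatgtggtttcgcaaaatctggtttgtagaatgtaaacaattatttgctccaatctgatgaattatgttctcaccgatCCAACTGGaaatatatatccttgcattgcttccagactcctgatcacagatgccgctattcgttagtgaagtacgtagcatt
Peak between ftz and Antp: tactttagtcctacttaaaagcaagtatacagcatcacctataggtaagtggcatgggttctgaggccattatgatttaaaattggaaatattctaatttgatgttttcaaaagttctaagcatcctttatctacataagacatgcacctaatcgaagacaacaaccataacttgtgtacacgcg
The GC content of the first stretch was 43.8% and that of the second 35.1%, and the median over 201 bp at the middle of each thresholded peak was 39.3%.

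Scr, which gives the labial segment and the first thoracic segment their identity and is needed for the salivary gland, was the member with a thresholded peak. The other 6 members had none, so 1 of 7 had a peak within 10 kb, compared with 17.5% of the 13938 other protein-coding genes. Among the 370 other genes of like length to Scr (annotated spans at most 20% shorter or 25% longer), 85 (23.0%) had such a peak. One gene of 7 is near that background, so the count says nothing particular about the complex. For the members without a peak, the share of genes of like length that had one was 25.0% of 519 for lab, 25.1% of 331 for pb, 16.0% of 2390 for zen, 19.8% of 1693 for bcd, 21.8% of 692 for Dfd and 34.2% of 79 for Antp.

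The Scr peak stood out by its strength. It lay at chr3R:6854376-6854689 (314 bp), with a signal of 344.9 and rank 55 in the pooled list, where rank 1 is the highest signal. The signal is the authors' own value for each region, with no stated scale, and is compared here only within a list. The peak is intergenic, and its summit was 4539 bp upstream of the Scr start and 9804 bp upstream of the ftz start.

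Each replicate list held 1 region over this peak. In replicate 1 it had a signal of 154.8 and rank 48, in replicate 2 107.2 and rank 82, and in replicate 3 87.2 and rank 63. These signals were 11.4, 10.2 and 9.50 times the median of their own lists, and the pooled signal was 13.5 times the pooled median. All 3 replicates thus placed the region among their 100 strongest of 30000. The pooled and thresholded lists were made from these replicates, so this agreement is not independent of the peak being in them. The 3 summits lay within 59 bp of each other, at 0 bp, 29 bp and -30 bp from the pooled summit.

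A peak this strong was uncommon at genes of the length of Scr. Of the 370 genes of like length, 6 (1.62%) had as good a best rank in the pooled list, and 6, 11 and 6 (1.62%, 2.97% and 1.62%) had one in replicates 1, 2 and 3. The median best rank of these genes was 2163.5 in the pooled list. By the mean absolute difference of log10 best rank over the pooled and 3 replicate lists, the gene of like length nearest to Scr was ham (0.138), whose best ranks were 43, 29, 52 and 67 in the pooled list and replicates 1, 2 and 3. Besides this peak, Scr had 15 pooled regions, the next at chr3R:6818492-6818907, between Dfd and Scr, with a signal of 49.0 and rank 1858. That region ranked 3849 in replicate 1 and 538 in replicate 2 and was not overlapped in replicate 3.

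**Figure D1:**
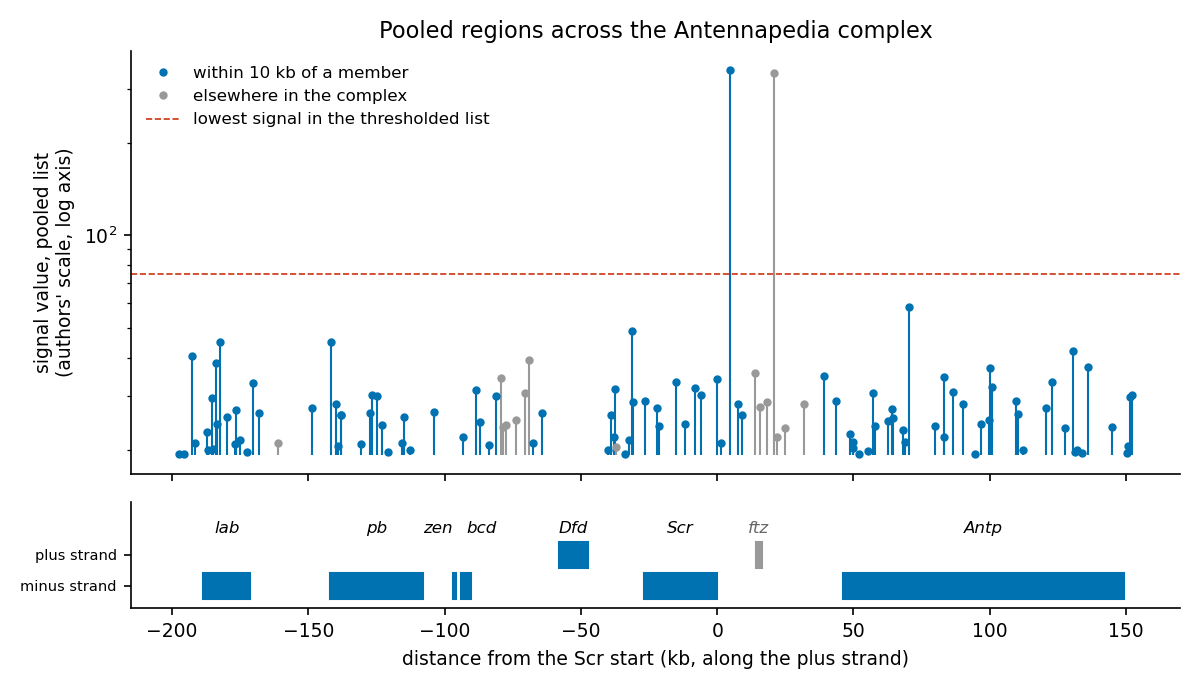
Signal of each pooled region (authors' scale, log axis) against distance from the Scr start in kb along the plus strand, with genes drawn to scale by strand below. Blue points lie within 10 kb of a member, grey points elsewhere in the complex, and the dashed line is the lowest signal in the thresholded list (75.0). The 2 regions above the line, at 344.9 and 337.8, lie on either side of ftz.

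The strongest region beside Scr had a partner of similar strength at chr3R:6870842-6871026 (185 bp), with a pooled signal of 337.8 and rank 61. This second peak lay 25.2 kb from the end of Antp and 20861 bp from the Scr start, outside the 10 kb window of every member, and 4598 bp past the end of ftz (FBgn0001077, chr3R:6864324-6866244, plus strand). It was named because the nearest thresholded peak to each member was described, and for Antp this was the nearest. Its signal was 112.9 in replicate 1, 115.9 in replicate 2 and 103.3 in replicate 3, with ranks 90, 69 and 38. The order of the 2 peaks was not fixed. The one beside Scr was the stronger in replicate 1 and in the pool, and the other was the stronger in replicates 2 and 3.

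The middles of the peaks were 16.4 kb apart, with ftz between them. The sequence between them held 5 pooled regions, the strongest with rank 5181 and signal 35.6. In replicate 1 it held 4 regions with a best rank of 9973, in replicate 2 4 with 3998, and in replicate 3 6 with 6430. In each list both flanking peaks were therefore many times stronger than anything between them. Insulator elements named SF1 and SF2 are known to flank ftz, but their positions are in no file used here, and whether the peaks coincide with them was not examined.

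**Figure D2:**
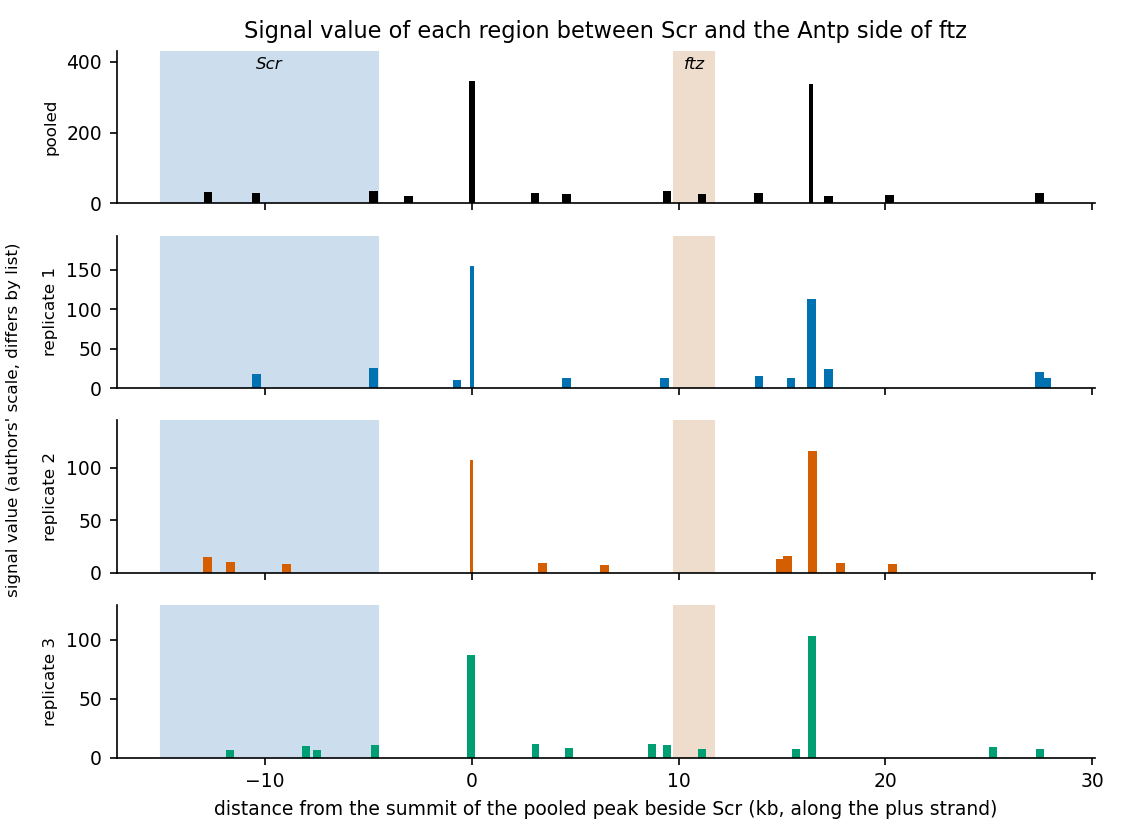
Signal of each region (bars drawn to the width of the region, authors' scale, which differs by list) against distance in kb from the summit of the peak beside Scr, for the pooled list and replicates 1, 2 and 3. Shaded spans mark the 5′ part of Scr and the ftz gene. In every panel the 2 tallest bars are the peak at 0 kb and the one on the far side of ftz.

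Over the complex from lab to Antp, these 2 peaks amount to 0.592 thresholded peaks per 100 kb, beside 0.577 for the whole of 3R. The next thresholded peak lay 235.0 kb beyond lab on one side and 76.4 kb beyond the Antp start on the other. The nearest thresholded peak was the one beside Scr for lab (175.8 kb away), pb (112.3 kb), zen (100.2 kb), bcd (94.9 kb) and Dfd (51.9 kb). Genes of like length had a median distance of 43.3 kb for lab, 46.9 kb for pb, 61.7 kb for zen, 52.5 kb for bcd, 54.2 kb for Dfd, 46.4 kb for Scr and 36.8 kb for Antp. The 4 genes at the lab end were farther from a thresholded peak than the median, Dfd was near the median, and Scr and Antp were closer.

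Below the threshold no other member came close to Scr in rank. In the replicates the best rank near Scr ran from 48 to 82, and the lowest value of any other member was 477. The first and second strongest regions near any member had signals of 344.9 and 58.4 in the pool, a ratio of 5.90. The ratio was 5.94 in replicate 1 (154.8 and 26.1), 2.99 in replicate 2 (107.2 and 35.8) and 3.37 in replicate 3 (87.2 and 25.9). In replicate 2 the second region, of rank 538, was itself near Scr, between Dfd and Scr. The strongest region near another member in that replicate was at Antp, with rank 883 and a signal of 27.5.

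Antp, which acts in the thoracic segments and keeps antennal fate from appearing there, had the second best rank in the pool, 1182, and ranks of 3337, 883 and 477 in replicates 1, 2 and 3. The replicates pointed to different places. The pooled region, chr3R:6920046-6920461 in an intron of Antp shared with CG46458 (signal 58.4), ranked 4791 and 883 in replicates 1 and 2 and was not overlapped in replicate 3. The best region of replicate 3, chr3R:7001104-7001483, lay 2065 bp upstream of an Antp start inside lncRNA:CR45899, ranked 2412 in replicate 2 and was not found in replicate 1. The second pooled region, chr3R:6980155-6980570, also intronic, ranked 3017 in the pool and 8670, 4593 and 23882 in the replicates.

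lab, the most anterior Hox gene, with roles in the head and the midgut, had best ranks of 4334, 1102 and 896 in replicates 1, 2 and 3 and of 2384 in the pool (signal 45.1). The pooled region, chr3R:6667217-6667632, is in an intron of lab, 3970 bp upstream of the nearer of its 2 starts, and ranked 4451 and 1102 in replicates 1 and 2 with no overlap in replicate 3. The second, chr3R:6656916-6657331 in an intron of the neighbour CG1307, ranked 3413 in the pool and 19093, 5152 and 896 in the replicates. Here too the replicates did not share a best region.

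pb, which specifies the adult mouthparts, had best ranks of 1638, 5151 and 3356 in the replicates and 2409 in the pool (signal 44.9). The pooled region, chr3R:6708128-6708543, is in a coding exon near the far end of the gene, 33728 bp downstream of its start, and was found in all 3 replicates with ranks 1638, 7907 and 9082. Its second region, chr3R:6723213-6723628 in an intron, ranked 8911 in the pool and 6397, 5151 and 5672 in the replicates. Both of these regions were thus found in every replicate, and both ranked far below the thresholded peaks. The best region near pb nevertheless differed in each replicate. That of replicate 3, chr3R:6710707-6711086 with rank 3356, was neither of these regions. It overlapped a pooled region of rank 25939 and was not found in replicates 1 and 2.

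zen, needed for dorsal fates and the amnioserosa, and bcd, the maternal anterior determinant, shared their strongest region, chr3R:6761356-6761771, which lies in an exon of lncRNA:CR45593, 2097 bp upstream of the bcd start and 7369 bp upstream of that of zen. It had a signal of 31.3 and rank 7973 in the pool, ranked 6734 and 2239 in replicates 1 and 2 and had no overlap in replicate 3. In replicate 3 the best region near both genes had rank 1629. The second region of zen, chr3R:6745961-6746376, ranked 13384, and that of bcd, chr3R:6768745-6769160 in an intron of lncRNA:CR42721, ranked 9118.

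Dfd, which patterns the mandibular and maxillary segments, had best ranks of 1834, 8475 and 6473 in the replicates and 7785 in the pool (signal 31.5). The pooled region, chr3R:6812337-6812752, lies in an intron of lncRNA:CR42651, 20708 bp downstream of the Dfd start and 9909 bp past the end of the gene. It ranked 1834 and 7371 in replicates 1 and 2 and was not overlapped in replicate 3. The best ranks of Dfd in the pool and in replicate 1 thus rest on a region at the edge of the 10 kb window. None of the 6 pooled regions near Dfd overlapped the gene, and they lay 6058 bp to 9909 bp from it. The second, chr3R:6785363-6785778, was intergenic and ranked 13714, and it was found in replicate 2 alone.

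The order of the members by pooled best rank was Scr, Antp, lab, pb and Dfd, with zen and bcd last and tied. Only the place of Scr was clear of the spread between replicates: its range met no other, and the replicate ranges of the other 6 members all overlapped each other. Scr was also the member with a thresholded peak. That list was made from the same replicates, so the narrow range of Scr is not independent of it. Compared with genes of like length, 54.7% had as good a pooled best rank as lab, 52.9% as pb, 72.6% as zen, 81.5% as bcd, 81.8% as Dfd and 41.8% as Antp. In the pool the members with a better best rank than the median were thus Scr and Antp, 2 of 7. The number was 3 in replicate 1 (Scr, pb and Dfd) and 5 in replicates 2 and 3 (Scr, Antp, lab, zen and bcd in both), so Scr alone was on the better side in all 4 lists. For Antp, 69.6% of genes of like length ranked as well in replicate 1, against 35.4% and 21.5% in replicates 2 and 3.

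**Figure D3:**
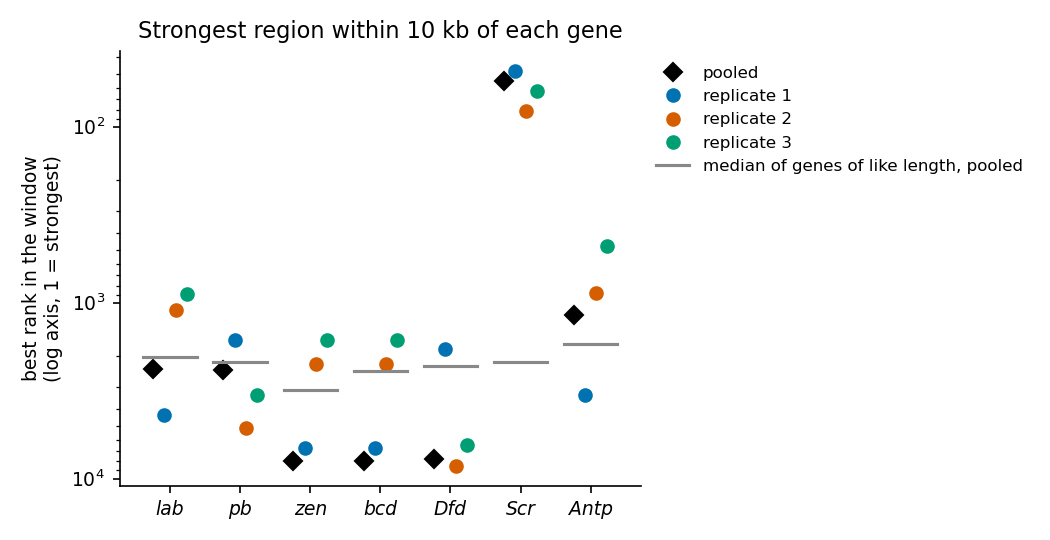
Rank of the strongest region within 10 kb of each gene (log axis, 1 is the strongest, drawn upwards) in the pooled list (diamonds) and in replicates 1, 2 and 3 (circles). Grey bars are the pooled median of genes of like length. Scr sits at 48 to 82 in every list, and the other members lie between 477 and 8475 and overlap each other.

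The regions of the 30000-region lists include background by design, so their number describes coverage of the locus and not a count of binding sites. lab had 13, 17 and 13 regions in replicates 1, 2 and 3 (14.3 ± 2.31, SD, n = 3) and 18 in the pool. pb had 15, 16 and 15 (15.3 ± 0.577) and 16 in the pool. zen had 7, 9 and 4 (6.67 ± 2.52) and 4 in the pool. The zen window is the shortest of the 7, and bcd, which shares most of it, varied more between replicates. bcd had 7, 14 and 5 (8.67 ± 4.73) and 6 in the pool, and Dfd had 7, 8 and 11 (8.67 ± 2.08) and 6 in the pool. Scr had 14, 18 and 15 (15.7 ± 2.08) and 16 in the pool. Antp, the longest gene, had 35, 46 and 31 (37.3 ± 7.77) and 41 in the pool.

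Per kb of window the pooled numbers were 0.484 for lab, 0.341 for Scr, 0.333 for Antp, 0.295 for pb, 0.254 for bcd, 0.196 for Dfd and 0.188 for zen. lab, pb, Scr and Antp had more pooled regions than the median of genes of like length (18 against 11, 16 against 13, 16 against 13, and 41 against 21). zen, bcd and Dfd had fewer (4 against 7, 6 against 9, and 6 against 10). The members farthest out were Antp, where 7 of 79 genes of like length (8.86%) had as many, and lab, where 71 of 519 (13.7%) did. The replicates moved these shares, to 25.3%, 10.1% and 36.7% for Antp and to 39.1%, 18.9% and 40.3% for lab. At Antp and lab the number of regions was therefore high in the pool and in replicate 2, and less so in replicates 1 and 3.

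**Figure D4:**
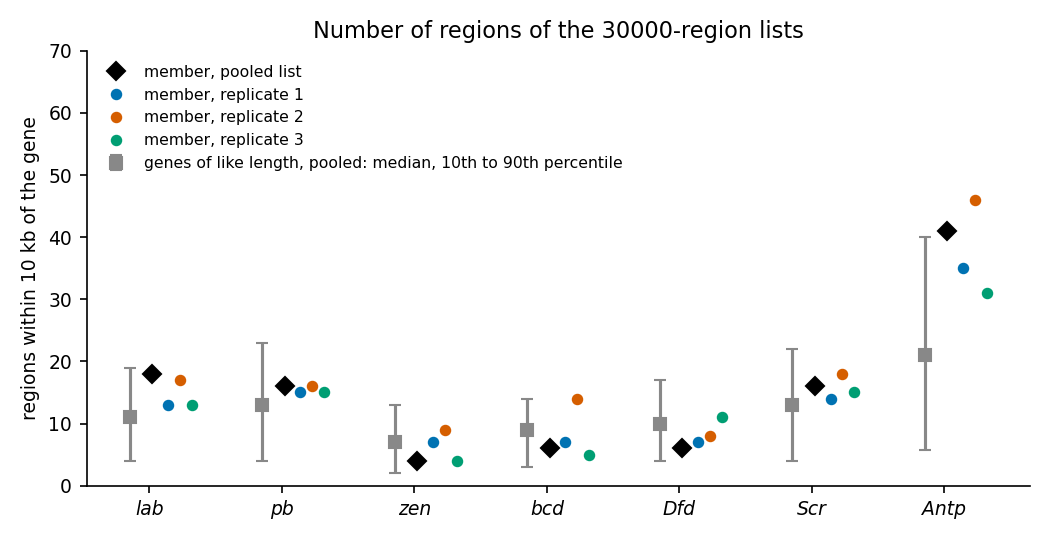
Number of regions of the 30000-region lists within 10 kb of each gene, in the pooled list (diamonds) and in replicates 1, 2 and 3 (circles), beside the pooled median of genes of like length (grey squares) with their 10th to 90th percentile. The pooled count of Antp (41) lies just above that range (5.8 to 40), and those of the other members lie inside theirs.

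Counting each region once, 102 pooled regions lay near a member, 0.330 per kb of the joined windows (309.3 kb) compared with 0.236 per kb over 3R and 0.224 over the 6 arms. In replicates 1, 2 and 3 the joined windows held 91, 113 and 89 regions, or 0.294, 0.365 and 0.288 per kb, each above the 0.238, 0.228 and 0.233 of 3R in the same list. The windows thus held more regions per kb than the arm in all 4 lists, and few of these were among the strongest. The arm is not a like background, because it also counts sequence away from genes. Against genes of like length, as given above, zen, bcd and Dfd had fewer pooled regions than the median and the other members had more. Of the 102 regions, 5 (4.90%) ranked within the strongest 3000, which are 10% of the list, and 1 (0.980%) within the strongest 1000, which are 3.33%. In replicates 1, 2 and 3, 4.40%, 6.19% and 8.99% ranked within the strongest 3000. The shares within the strongest 1000 were 1.099%, 2.65% and 3.37%, so replicate 3 was at the 3.33% of the list. The median rank of the 102 was 14879.5, near the middle of the list.

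The share of regions recovered in all 3 replicates was like that of the whole list. Of the 102 pooled regions, 20 (19.6%) were overlapped in every replicate list, compared with 21.1% of all 30000, 41 in a pair of them, 37 in 1 and 4 in none. Replicate 1 overlapped 54 of the 102 beside 19322 of the 30000, a lower share, and replicate 2 overlapped 72 beside 17313, a higher one. Replicate 3 overlapped 53 beside 16324. Because the replicates entered the pool, this recovery is not independent of it. By member, regions found in all 3 replicates numbered 8 of 41 for Antp, 5 of 16 for pb, 4 of 16 for Scr, 2 of 18 for lab, 1 of 6 for bcd, 0 of 6 for Dfd and 0 of 4 for zen. Of the 4 regions near members that ranked above 3000 but below the threshold, 1 was in all 3 replicates, compared with 68.4% of the 2268 such regions over the genome. All 4 were in replicates 1 and 2, and 1 was in replicate 3.

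**Figure D5:**
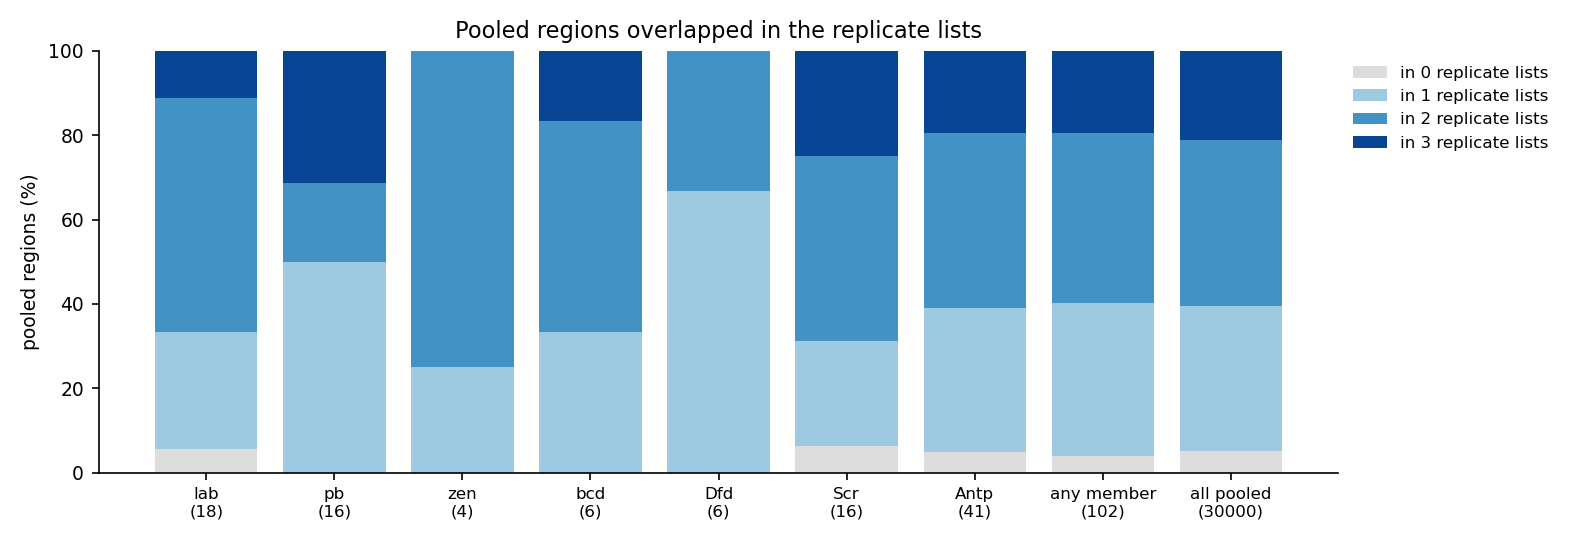
Share of pooled regions (%) overlapped by at least 1 bp in 0, 1, 2 or 3 replicate lists, for each gene, for any member and for the whole pooled list, with the number of regions in brackets. The bar for any member (19.6% in all 3) is close to that for all pooled regions (21.1%).

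The regions near members lay away from gene starts. By their middle, 64 of 102 (62.7%) were intronic compared with 37.6% of all pooled regions, 8 (7.84%) were in coding exons compared with 32.1%, and 10 (9.80%) were in exons of non-coding genes compared with 2.08%. Intergenic sequence held 15 (14.7% compared with 20.04%), and 5′ and 3′ UTRs held 2 and 3. Long introns and non-coding genes take up much of the complex, and these shares were not adjusted for that. A protein-coding start lay within 500 bp of 7 of the 102 (6.86%), compared with 19.6% of all pooled regions. No member start had a thresholded peak within 500 bp. Of the Antp starts, 1 of 3 had a weaker region within 500 bp in every 30000-region list, and the starts of bcd and Dfd had none in any.

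Motifs were sought on both strands in the 201 bp at the middle of each region. The 5 motifs were the Insensitive palindrome CCAATTGG, CCAATAAG of the Elba factors, which are BEN-domain relatives of Insensitive, the Trl motif GAGAGAG, the homeodomain core TAATTA and the DREF motif TATCGATA. Neither strong peak held any of them. Near members CCAATTGG was in 1 of 102 regions (0.980%), compared with 0.947% of all pooled regions and 13.5% of thresholded peaks. TAATTA was in 14 (13.7%), compared with 9.80% and 12.4%, and GAGAGAG in 4 (3.92%), compared with 2.39% and 8.06%. CCAATAAG and TATCGATA were in none of the 102, compared with 0.733% and 0.440% of all pooled regions. The median GC content was 45.3% near members and 46.8% over the pooled list.

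The palindrome occurred 5 times in the members' windows, 1.62 per 100 kb, compared with 2.20 over the arms, and 2 of these 5 lay inside a pooled region, compared with 470 of 2939 (16.0%) over the arms. Of these, 3 are shown with 20 bases to each side, on the plus strand of the RefSeq release 6 genome with the palindrome in capitals. They are the 2 inside a pooled region and the one nearest to the strong peaks.
Intron of pb, chr3R:6727115-6727162: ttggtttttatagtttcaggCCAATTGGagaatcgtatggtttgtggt
Coding exon of Scr, chr3R:6825240-6825287: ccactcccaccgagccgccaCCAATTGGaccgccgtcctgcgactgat
Upstream of Antp, chr3R:7002124-7002171: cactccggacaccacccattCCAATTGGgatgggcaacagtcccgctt
The pb copy lay in a pooled region of rank 17632, found in replicate 2 at rank 6972 and in neither other replicate. The Scr copy was in no pooled region and in a region of rank 11512 in replicate 2 alone. The copy upstream of Antp was in one of rank 9065 that no replicate list held at that site. The copy in Scr was 29256 bp from the summit of the peak beside Scr, so no exact palindrome lay nearer than that to the strongest region of the complex.

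The peak beside Scr did hold CCAACTGG at chr3R:6854564-6854571, 48 bp from its summit and in capitals in the sequence printed first. It differs from the palindrome by T5C, counted from the first base of CCAATTGG. A match with at most 1 mismatch was in 33.1% of thresholded peaks, in 10.9% of the pooled regions below the threshold and in 10 of 102 regions near members (9.80%). This looser match was chosen after the sequence of the peak had been seen. A match is a description of the letters and not a measured site.

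Genes that act with the complex were taken from a list of 43, and 11 had a thresholded peak within 10 kb. These counts and those by role are to be read against the 17.5% of other protein-coding genes with such a peak. Of the posterior Hox genes, Ubx and Abd-B had one and abd-A did not (2 of 3). Ubx, which acts in the posterior thorax and anterior abdomen, had a best rank of 88 in the pool (signal 286.5) and 87, 140 and 66 in replicates 1, 2 and 3. Abd-B, the gene of the most posterior segments, had rank 234 (signal 167.3) and 271, 239 and 222. Scr therefore ranked ahead of both in the pool and in each replicate. The pooled best rank of abd-A was 2794, within the range of the members without a peak.

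Among 12 genes that maintain Hox expression, 5 had a peak, again beside 17.5% of other genes: the trithorax group genes ash1 and Trl, and the Polycomb group genes ph-p, Psc and Pc. The strongest pooled peak near each had rank 66 and a signal of 316.7 for ash1, rank 99 and 274.3 for ph-p, rank 226 and 170.2 for Trl, rank 256 and 158.5 for Psc, and rank 381 and 117.8 for Pc. Of 6 genes for cofactors, tio, a zinc-finger relative of teashirt, had a peak, of rank 447 and signal 106.1. Of 9 genes known as targets, fkh, which Scr activates in the salivary gland, had one of rank 519 and signal 95.8. Of 10 upstream patterning genes, the head gap gene btd had one of rank 566 and signal 89.8. Of the complex neighbours zen2, Ama and ftz, ftz had the 2 peaks described above. The list was drawn up with earlier results of these data known and was not tested as a set.

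The genes of like length nearest to the other members in best rank over the pooled and 3 replicate lists were CG4467 for lab (mean absolute log10 difference 0.110), CG11030 for pb (0.0923), mRpL37 for zen (0.0321), Tyler for bcd (0.0843), Mco1 for Dfd (0.0679) and cv-c for Antp (0.103). Best ranks of cv-c were 1127 in the pool and 2871, 1643 and 545 in the replicates. Because cv-c was picked for the likeness of these ranks to those of Antp, their shared order over the replicates is not a separate result.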

How the data were processed

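Lists of regions from chromatin immunoprecipitation of insv-GFP in 3 biological replicates were used, with coordinates on dm6. For each replicate, and for the pooled alignments of all 3, the authors deposited 30000 regions of peaks and background as input for an analysis of irreproducible discovery rate (IDR), and a further list of 732 peaks that passed it. The text lists beside the samples show that calling also used a control library, which was not analysed here. The deposited signal of each region is the authors' own value. No caller, aligner or IDR threshold is named in the labels or headers. Sequencing depth is unknown, which leaves no interval to compute. Nothing says whether the replicates were separate collections of embryos. The 732 peaks equal the 732 strongest regions of the pooled list. Lists on dm3 were not used.

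Regions were ranked by signal within each list. Gene spans came from Ensembl release 115 (BDGP 6.54), and member spans were the same in RefSeq. A region was near a gene when it overlapped the span widened by 10 kb to each side by at least 1 bp. Genes of like length were at most 20% shorter or 25% longer and were described by counts and medians. With 1 group no test between conditions was possible and no p-value is given. Motif matches on either strand were counted up to 100 bp from the middle of a region. Named genes were the members, the gene of like length nearest in best rank, and related genes with a thresholded peak. Named regions were the 2 strongest pooled regions and the nearest thresholded peak of each member. The members and lists were chosen with earlier results of these data known. Counting was tested on simulated regions. Alternatives covered windows, overlap rules, lengths, strength limits and left-out replicates. Python 3.11.15, NumPy 2.4.6, pandas 2.3.3 and matplotlib 3.10.9 were used.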

Additional observations from a re-analysis of the deposited data

How the results depend on the processing

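Scr kept its thresholded peak with windows of 5 kb and 20 kb, by the middle of the region, among the 50% of peaks with the highest signal, and when a region among the strongest 1000 of every replicate, or of any pair of replicates, was required. With windows of 0 kb and 2 kb 0 and 0 members had one, because the peak is 4395 bp from the gene. The number of pooled regions near members fell from 102 to 29 among the 10000 strongest regions and to 5 among the 3000 strongest, and lay between 70 and 123 under the other windows and counting rules. The 20 regions found in every replicate became 8 when 50% of the region had to be overlapped, 4 with the 10000 strongest regions of each replicate and 1 with the 3000 strongest. Leaving out each replicate in turn gave 25 to 40, since fewer lists had to hold the region. The number of members with a better best rank than the median of like length was 2, and was 1 against genes of the same arm, 4 with a window of 5 kb, and 3 with windows of 0 kb and 2 kb or a narrower range of lengths (the cause was not tested). The number with more regions than the median was 3 or 4 throughout. No paired analysis was possible because there is 1 group. Ranking by the deposited p-value column was not run, because that column holds 1 value throughout. Depth is unknown, so weak regions cannot be given a detection limit.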
